A study of Rattus norvegicus with 35 samples.

Results

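The comparison described here is of 2 multi-walled carbon nanotubes, Mitsui-7 and NM-403. It sets the lungs of 6 wild-type rats given Mitsui-7 against those of 6 wild-type rats given NM-403 at the same stated dose. These 12 arrays were taken by their titles from the 35 arrays of the series. All animals were female Sprague Dawley rats that were 12 weeks old at the first instillation, and they received 4 weekly instillations into the trachea. The stated dose was 0.25 mg per rat for both nanotubes, and the labels do not say whether this was each instillation or the total. The accessory lobe was taken at day 3 after exposure. The other groups used here are 6 wild-type rats without nanotubes, labelled control, and rats labelled GMO, which are heterozygous for p53. Of the GMO rats, 6 were given Mitsui-7 and 5 NM-403, and 6 are labelled control. The GMO control rats enter only the shared fit of all 35 arrays. Each rat gave 1 array of whole-lobe RNA.

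Fibres that reach the lower airways meet alveolar macrophages, which take up particles and release chemokines that call in other leukocytes. Neutrophils arrive when epithelium and macrophages release CXC chemokines of the Cxcl1 family. Eosinophils and mast cells accompany type 2 responses, in which airway secretory cells turn into mucus-making goblet cells. Interferons induce another set of chemokines, the ligands of the receptor CXCR3, which attract T cells.

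Levels are log2 processed signal relative to the 75th percentile of the same array, so 0 is that percentile, and they are compared within a gene only. Differences are Mitsui-7 minus NM-403 on the log2 scale ± SE from limma with slide as a block. Of 24473 genes tested, 1538 differed at an adjusted p under 0.05, which is 6.28%. Of these, 1110 (4.54% of all genes) were higher with Mitsui-7 and 428 (1.75%) were lower. These shares are the background for the counts of list members below. The 12 arrays did not overlap between the groups for 470 genes higher with Mitsui-7 (1.92%) and for 120 lower (0.49%). The share of calls that were higher, 72.2%, depended on scaling: it was 32.8% with array medians and 51.3% with quantile normalization. It was 35.8% in the authors' matrix, which held only 9803 genes and 693 of the 1538 calls. There, scaling and the choice of genes cannot be told apart. The median of all genes was 0.03. Fitted on the 12 arrays alone, without the other groups to estimate the spread and the slide effects, 194 genes passed, 187 of them also in the full fit. In that fit 89 of 138 named genes lost the call.

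The sizes were uneven, as the plot of differences against adjusted p shows: among called genes with a symbol, 47 were higher with Mitsui-7 by more than 2 on the log2 scale and 7 were lower by more than 2. At 1.5-fold or more, 677 genes were higher with Mitsui-7 and 105 lower (3.2% of all genes together).

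**Figure D1:**
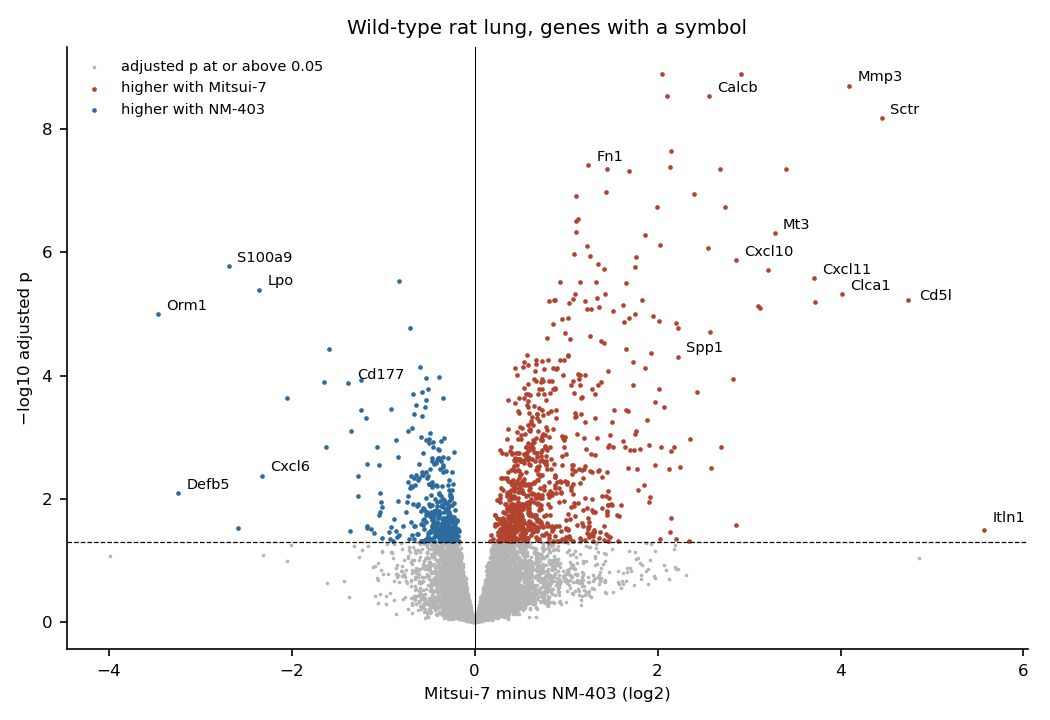
The horizontal axis is the log2 difference, Mitsui-7 minus NM-403, in wild-type lung, and the vertical axis is −log10 of limma's adjusted p for each gene with a symbol. Red points were higher and blue points lower with Mitsui-7 at an adjusted p under 0.05 (dashed line), and Orm1 and S100a9 mark the NM-403 side, while Mmp3, Sctr and Itln1 mark the Mitsui-7 side.

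The array of Mitsui-7 replicate 5 stood apart, with 86.4% of its spots well above background against 71.2% to 73.8% on the other Mitsui-7 arrays. The array of NM-403 replicate 6 had 66.1%, and the other NM-403 arrays had 71.3% to 73.6%. Without Mitsui-7 replicate 5, 1059 genes passed (764 higher, 295 lower), and without NM-403 replicate 6, 1146 passed (883 higher, 263 lower). The lower calls also fell to 268 without Mitsui-7 replicate 4 and to 280 without NM-403 replicate 3. Both groups lay together on slides 2 to 5. Mitsui-7 replicate 5 and NM-403 replicate 6 were both on slide 5, which held no other NM-403 array. The tissue label was borne out by lung markers. Sftpc, surfactant protein C of alveolar type 2 cells, had levels of 6.38 to 6.71 with Mitsui-7 and 6.33 to 6.85 with NM-403, and its difference of 0.05 ± 0.10 did not pass. Scgb1a1, the main secretory protein of club cells, had a difference of -0.09 ± 0.08 that did not pass either.

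Of 19 mucous cell genes tested, 7 were higher with Mitsui-7 and 1 was lower, with a list median of 0.81 against 0.03 for all genes. Clca1, a protein secreted by goblet cells, had levels from -0.31 to 1.24 (median 0.58) with Mitsui-7 and from -4.46 to -2.40 (median -3.30) with NM-403. The vehicle arrays lay at -5.92 to -2.66, so the NM-403 rats overlapped the vehicle rats and the Mitsui-7 rats did not. The difference was 4.01 ± 0.49 (adjusted p = 4.8e-06), a 16.1-fold higher signal, and it lay between 2.87 and 4.49 on the slides that held both groups. Muc5b, a gel-forming mucin, ranged from -4.47 to -1.90 with Mitsui-7 and from -7.56 to -6.76 with NM-403, a difference of 3.72 ± 0.47 (adjusted p = 6.41e-06). It was well above background on 3 of 6 NM-403 arrays. Gcnt3, the enzyme that branches the sugar chains of mucins, was well above background on no NM-403 array and on all 6 Mitsui-7 arrays, so its signal was at least 4.61-fold higher with Mitsui-7 (adjusted p = 4.42e-08). For such a bound, a dim array counts at its lowest detected signal or, if larger, at the measured value. Such bounds hold for the main processing only and carry no SE. The genes given a bound here kept their calls in the alternatives, but some differences there were below the bound. The smallest log2 differences were 0.48 for Gcnt3, 0.49 for Krt17, 0.53 for Trh and 0.58 for Slc1a6. They were 0.74 for Mmp3, 1.19 for Sctr and 1.26 for Cd5l.

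Itln1, a lectin of goblet cells, had the largest fitted difference of the named genes, 5.57 ± 1.58 (adjusted p = 0.0323), but the groups overlapped. Its levels ran from -3.95 to 3.85 with Mitsui-7 and from -8.26 to -2.12 with NM-403. Itln1 was well above background on 3 of 6 NM-403 arrays, so its size rests partly on signals near the limit of detection. Its call was lost in 14 of 28 alternatives, and its adjusted p there reached 0.186. Muc1, a mucin anchored in the membrane of surface epithelium, went the other way, with a difference of -0.49 ± 0.13 (adjusted p = 0.0188). The mucous list thus held calls in both directions.

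The other airway epithelial lists were smaller in effect. Of 20 ciliated cell markers, 8 were higher and none lower, with a median of 0.39. Dnai2, a dynein arm protein of motile cilia, was at -1.73 to -1.21 with Mitsui-7 and at -2.64 to -2.04 with NM-403 (0.74 ± 0.11, adjusted p = 0.000116). Of 13 club and secretory cell markers 2 were higher and 2 lower, but the median was -0.36, 2 of the 13 differences were above 0, and the median was negative on each slide (-0.61 to -0.16). Lypd2 was at 0.79 to 1.27 with Mitsui-7 and at 0.20 to 0.44 with NM-403 (0.74 ± 0.11, adjusted p = 5.82e-05), while Cyp2f4, a cytochrome P450 of club cells, was lower (-0.43 ± 0.11, adjusted p = 0.0167).

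Among 19 genes of basal, injured and simple epithelium, 4 were higher and none lower. Krt17, a keratin of basal and injured epithelium, was well above background on all 6 Mitsui-7 arrays and on no NM-403 array, with a signal at least 4.66-fold higher (adjusted p = 1.86e-07). Krt14 was higher by 1.53 ± 0.26 and Cldn4, a tight junction protein, by 1.23 ± 0.16. Alveolar markers hardly differed. Of 15 type 2 cell markers 2 were lower, Fasn (-0.41 ± 0.11) and Nkx2-1 (-0.28 ± 0.07), and of 14 type 1 cell markers none passed.

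**Figure D2:**
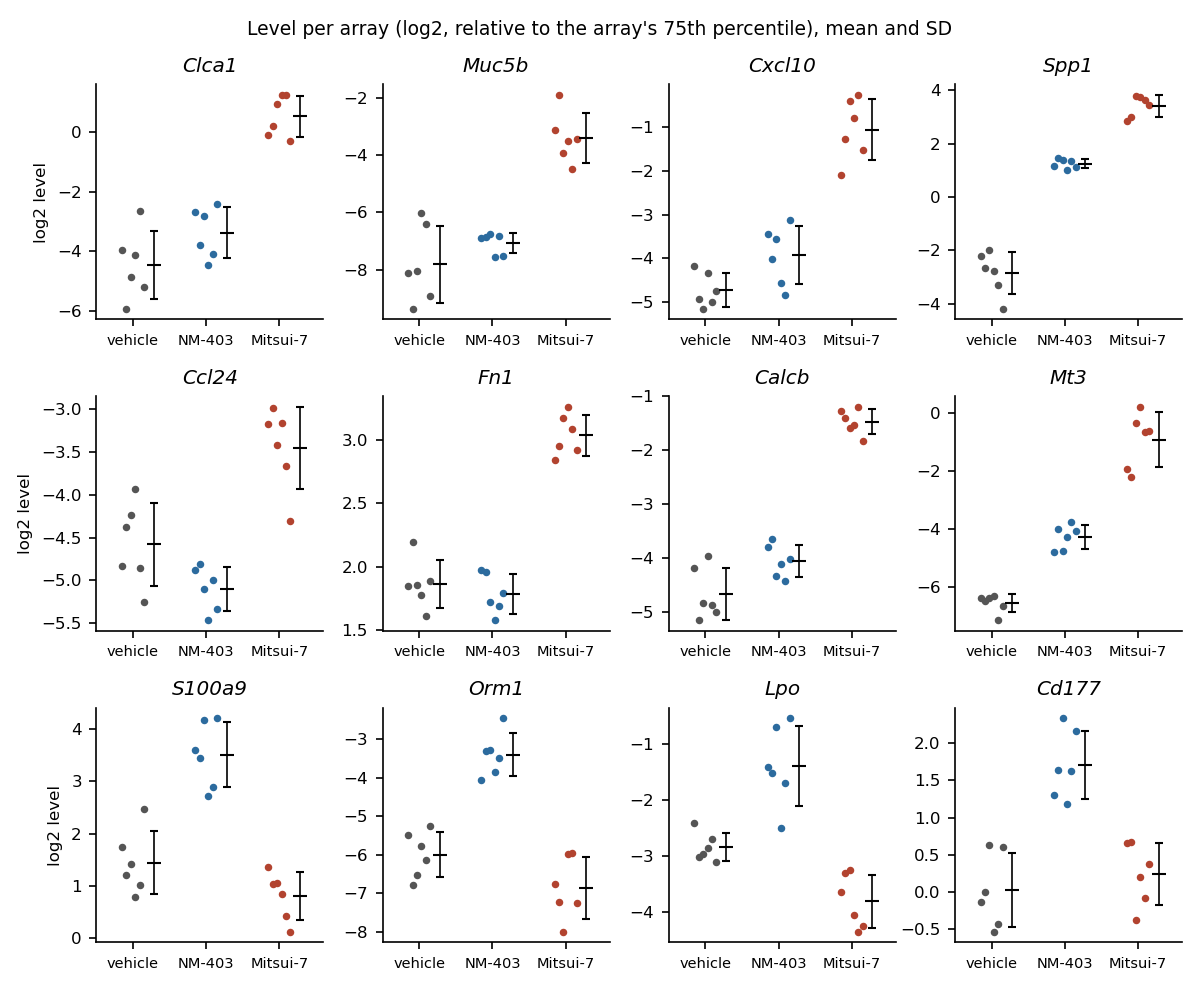
Each panel is 1 gene, each point 1 wild-type rat, and the vertical axis is the log2 level relative to the array's 75th percentile, with the group mean and SD in black. For Clca1, Muc5b, Cxcl10, Spp1, Ccl24, Fn1, Calcb and Mt3 all 6 Mitsui-7 rats lie above all 6 NM-403 rats, and for S100a9, Orm1, Lpo and Cd177 all 6 lie below.

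Type 2 genes were split between a few large differences and many small ones. Of 20 tested, 5 were higher with Mitsui-7 and 1 lower, and the list median was 0.14 (-0.02 over the members in the authors' matrix). Ccl11, eotaxin, attracts eosinophils through Ccr3. It was at 1.63 to 2.04 (median 1.89) with Mitsui-7, at -1.77 to 1.15 (median -0.22) with NM-403 and at 0.54 to 1.89 (median 0.93) in vehicle rats. Its difference between the nanotubes was 1.90 ± 0.37 (adjusted p = 0.00135). Against vehicle, it was lower with NM-403 by 1.20 on the log2 scale (-1.20, adjusted p = 0.0396), and the Mitsui-7 difference of 0.71 did not pass (adjusted p = 0.164).

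Ccl24, a second ligand of Ccr3, was at -4.30 to -2.99 with Mitsui-7 and at -5.46 to -4.81 with NM-403, without overlap (1.65 ± 0.23, adjusted p = 3.69e-05). Ccr3 itself was higher by 1.28 ± 0.25 (adjusted p = 0.00192). Il5, the cytokine that sustains eosinophils, was higher by 2.14 ± 0.61 (adjusted p = 0.0346), with overlapping arrays, and its call was lost in 13 of 28 alternatives. Il5 was well above background on 3 of 6 NM-403 arrays, and its smallest difference in any alternative was 0.48. Arg1, arginase 1, was lower with Mitsui-7, at -1.13 to -0.19 against -0.16 to 0.56 (-0.83 ± 0.20, adjusted p = 0.0109).

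Of 12 mast cell and eosinophil markers tested, 5 were higher and none lower, with a median of 0.98. These 5 genes are typical of mast cells. They include Ms4a2, a chain of the IgE receptor (1.48 ± 0.28, adjusted p = 0.00133), and the proteases Mcpt2 (1.44 ± 0.34), Cpa3 (1.30 ± 0.38) and Tpsab1 (1.30 ± 0.40). The calls of Cpa3 and Tpsab1 were lost in 15 and 20 of 28 alternatives. The median over this list ran from 0.04 to 2.12 between slides and was -0.15 over the members in the authors' matrix. Prg3 and Epx, granule proteins of eosinophils, were too dim to be tested, and Prg2, another granule protein, had a difference of 0.25 ± 0.29 that did not pass. In RNA of a whole lobe, more or fewer cells of a type cannot be told apart from more or less RNA per cell.

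Interferon-inducible genes were higher with Mitsui-7. Of 33 CXCR3 ligands and interferon-stimulated genes, 10 passed and all were higher, with a median of 0.45 that lay between 0.35 and 0.51 within slides. Cxcl10 was at -2.08 to -0.26 (median -1.03) with Mitsui-7, at -4.85 to -3.13 (median -3.79) with NM-403 and at -5.16 to -4.19 (median -4.84) in vehicle rats. All Mitsui-7 rats were above all others, and the difference from NM-403 was 2.86 ± 0.32 (adjusted p = 1.33e-06), a 7.26-fold higher signal. Cxcl11 was well above background on 6 of 6 Mitsui-7 arrays and on 1 of 6 NM-403 arrays, so its fitted difference of 3.71 ± 0.44 (adjusted p = 2.59e-06) rests on signals at the limit of detection. Mx1 and Usp18, an antiviral GTPase and a brake on interferon signalling, were higher by 0.97 ± 0.18 and 0.94 ± 0.21. Cxcl9, the remaining ligand, had a difference of 0.62 that did not pass.

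The promoters of Cxcl10 and Cxcl11 are shown because these chemokines led the list. Lcn2 is shown because it moved the other way. Each sequence is the 250 bases before the start of the gene in RefSeq (build GRCr8), 5′ to 3′ on the strand of the gene, with matches in capitals, searched on both strands. The motifs were the interferon-stimulated response element (GAAA, any 2 bases, GAAA) and the kappaB site (GGGA, any 2 bases, TTCC). They lie at chr14:15988816-15989065 and chr14:15973478-15973727 on the plus strand and chr3:36081781-36082030 on the minus strand.
Cxcl10: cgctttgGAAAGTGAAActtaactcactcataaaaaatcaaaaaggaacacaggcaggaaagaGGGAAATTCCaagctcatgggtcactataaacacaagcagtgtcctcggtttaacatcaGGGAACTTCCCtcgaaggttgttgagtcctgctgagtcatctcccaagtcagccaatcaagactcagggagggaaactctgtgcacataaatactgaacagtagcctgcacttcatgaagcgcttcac
Cxcl11: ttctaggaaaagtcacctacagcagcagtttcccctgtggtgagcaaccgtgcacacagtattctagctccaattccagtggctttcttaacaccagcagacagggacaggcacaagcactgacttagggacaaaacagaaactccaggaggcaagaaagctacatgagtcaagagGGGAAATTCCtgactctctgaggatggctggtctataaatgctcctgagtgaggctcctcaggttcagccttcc
Lcn2: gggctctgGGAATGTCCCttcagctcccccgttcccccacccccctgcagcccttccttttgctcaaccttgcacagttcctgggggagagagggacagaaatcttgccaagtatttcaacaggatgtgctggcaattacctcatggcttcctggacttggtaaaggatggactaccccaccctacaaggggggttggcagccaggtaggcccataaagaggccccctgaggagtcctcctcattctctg
The Cxcl10 stretch held 1 match to the response element, with 233 bases between it and the start, and 3 to kappaB, of which 2 overlap. Cxcl11 held 1 kappaB match, with 64 bases to the start, and none to the response element. Lcn2 held 1 kappaB match, with 232 bases to the start, and 1 C/EBP match that is not capitalised. The same stretch of Cxcl9, searched but not shown, held no match to any of these motifs. Of 27457 promoters of this length, 3.29% held the response element and 1.07% the kappaB site. Of the interferon list, 25 members matched a promoter and 17 held the response element (68.0%), and of the 7 called members matched 5 did (71.4%). Another motif, the C/EBP site (TTGCNNAA), was held by 9.2% of all promoters, by 6 of 10 acute phase genes matched and by 4 of 12 neutrophil genes matched. Among called members it was held by 3 of 4 acute phase genes and by 0 of 4 neutrophil genes. These are letter matches and not measured sites.

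Of 20 macrophage and monocyte markers, 9 were higher with Mitsui-7 and none lower (median 0.52). The 11 that did not pass include Mrc1 (0.04), the mannose receptor, and Msr1 (-0.20), a scavenger receptor. The mean level of the list ran from -1.18 to -0.61 with Mitsui-7, from -1.50 to -1.28 with NM-403 and from -1.74 to -1.55 in vehicle rats, so no group overlapped another. All but 2 of the 20 were well above background on all 12 arrays. Itgam, the integrin CD11b, was at -0.90 to 0.23 with Mitsui-7 and at -2.13 to -1.20 with NM-403 (1.38 ± 0.22, adjusted p = 0.000128). Clec4a3, a lectin receptor of myeloid cells, was 2.14-fold higher (adjusted p = 4.8e-06). How far the share of macrophages contributes to the genes below was not tested.

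Among 22 genes of lipid-handling macrophages, 9 were higher and none lower. Cd5l, a protein secreted by macrophages that shields them from apoptosis, was well above background on 6 of 6 Mitsui-7 arrays and on no NM-403 or vehicle array, with a signal at least 14.0-fold higher than with NM-403 (adjusted p = 5.82e-06). Spp1, osteopontin, was raised by both nanotubes. It was at 2.84 to 3.79 with Mitsui-7, at 1.02 to 1.45 with NM-403 and at -4.19 to -2.00 in vehicle rats. The difference between nanotubes was 2.22 ± 0.32 (adjusted p = 4.91e-05), beside 4.09 for NM-403 over vehicle and 6.32 for Mitsui-7 over vehicle. Fabp4, a fatty acid carrier, was higher by 1.62 ± 0.31 and Olr1, a receptor of oxidised lipoprotein, by 1.26 ± 0.17. Trem2, a lipid receptor of macrophages, had a difference of 0.61 ± 0.26 that did not pass (adjusted p = 0.164).

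Lysosomal genes did not follow as a group. Of 29, 4 were higher, and the median was 0.10. Ctsk, cathepsin K, was the largest, at 1.14 to 2.42 with Mitsui-7 and -0.35 to 0.49 with NM-403 (1.93 ± 0.28, adjusted p = 4.36e-05). Of 17 monocyte and other CC chemokine genes 3 were higher and none lower. They were Ccl12 (1.38 ± 0.40, adjusted p = 0.0343) and Ccl9 (0.93 ± 0.26, adjusted p = 0.0277), whose calls were lost in 16 of 28 and 10 of 29 alternatives, and the receptor Ccr2. Ccl2, the main attractant of monocytes, had a median of 0.39 with Mitsui-7, 0.46 with NM-403 and -1.36 in vehicle rats. Its difference of 0.28 ± 0.30 between nanotubes did not pass (adjusted p = 0.615), nor did that of Ccl7 (0.11 ± 0.32, adjusted p = 0.88), and both signs turned in some alternatives. Over vehicle, Ccl2 was higher by 1.91 with Mitsui-7 and by 1.64 with NM-403. Ccr2, the receptor of Ccl2, was higher by 0.79 ± 0.17 (adjusted p = 0.00331).

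Among the matrix lists, the calls were on the Mitsui-7 side, and most members did not pass. Of 23 metalloproteinases, inhibitors and plasmin genes 7 were higher, of 18 collagens 6, and of 26 matricellular proteins and crosslinkers 9, with none lower. The matricellular median of 0.10 was -0.07 on slide 3 and -0.01 over the members in the authors' matrix. Fn1, fibronectin, was at 2.84 to 3.26 with Mitsui-7, at 1.58 to 1.98 with NM-403 and at 1.61 to 2.19 in vehicle rats. NM-403 rats thus lay within the vehicle range or just below it, and the difference between nanotubes was 1.24 ± 0.11 (adjusted p = 3.83e-08). Ccn4, a matricellular protein of the WNT pathway, was higher by 1.95 ± 0.26, Thbs2 by 1.32 ± 0.22 and Vcan by 1.02 ± 0.15. The fibrillar collagens differed less, with 0.58 ± 0.13 for Col1a1 and 0.58 ± 0.08 for Col3a1.

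Mmp3, stromelysin 1, was well above background on no NM-403 or vehicle array and on all Mitsui-7 arrays, with a signal at least 7.31-fold higher (adjusted p = 1.95e-09). Mmp12, the macrophage elastase, ran from -0.93 to 1.21 with Mitsui-7 and from -1.72 to -0.79 with NM-403, and the vehicle rats were at -4.18 to -3.21 (1.74 ± 0.27, adjusted p = 0.000142). Mmp7, matrilysin, had a difference of 2.19 ± 0.69 that just missed the threshold (adjusted p = 0.0572). It was well above background on all 12 nanotube arrays and on 2 of 6 vehicle arrays.

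**Figure D3:**
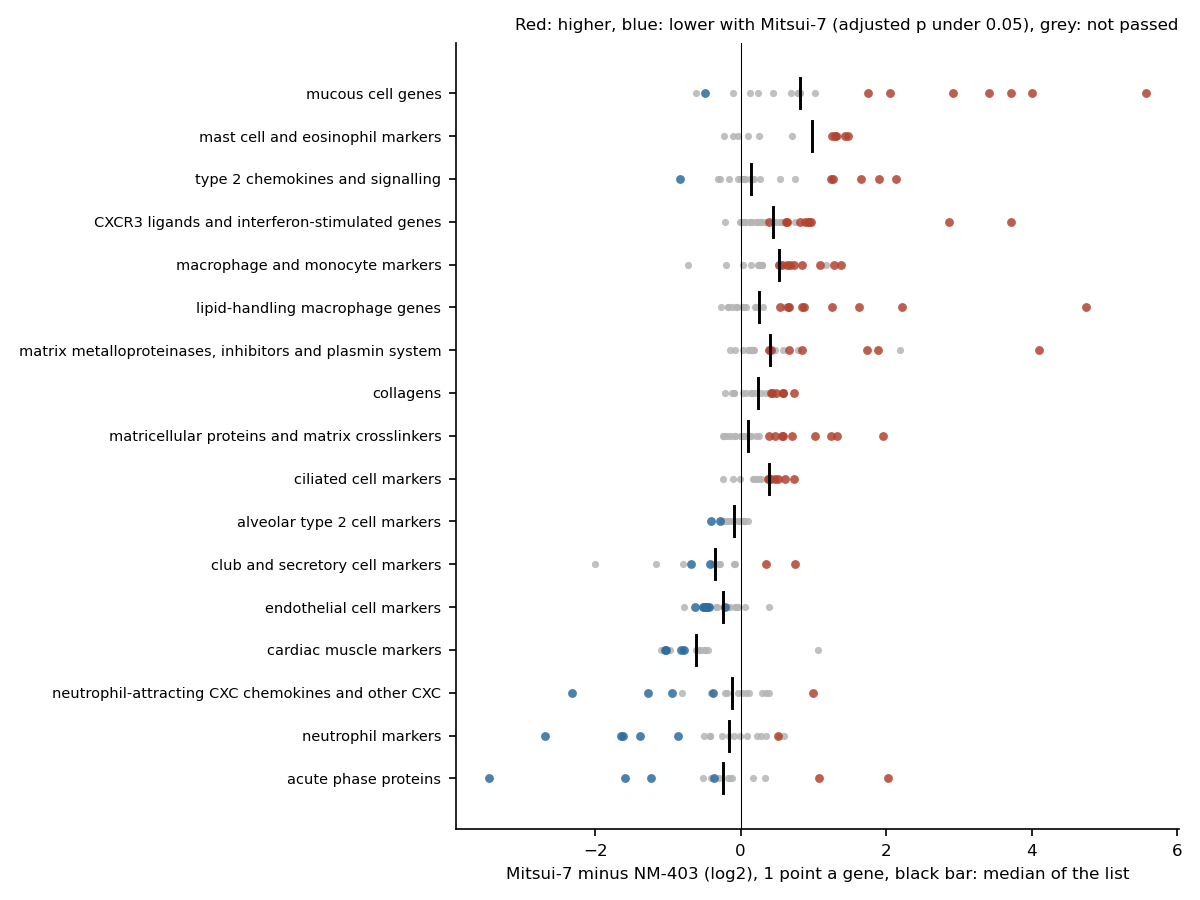
Each row is a gene list, each point a tested member at its log2 difference, Mitsui-7 minus NM-403, and the black bar is the list median. Mucous genes spread farthest to the right, with Itln1 at 5.57, and acute phase proteins farthest to the left, with Orm1 at -3.46. Both values are fitted differences that rest partly on signals near the limit of detection.

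Of 19 neutrophil markers 5 were lower with Mitsui-7 and 1 was higher, with a median of -0.16 that lay between -0.63 and -0.02 within slides. Of the 19 differences, 7 were above 0. S100a9, a calcium-binding protein abundant in neutrophils, was at 0.12 to 1.35 (median 0.94) with Mitsui-7, at 2.72 to 4.21 (median 3.52) with NM-403 and at 0.79 to 2.47 (median 1.31) in vehicle rats. NM-403 rats were above all others, and the difference was -2.69 ± 0.31 (adjusted p = 1.67e-06). Against vehicle, the S100a9 difference was 2.11 with NM-403 (adjusted p = 5.64e-05) and -0.58 with Mitsui-7, which did not pass (adjusted p = 0.179). Its partner S100a8 was also lower (-1.62 ± 0.31, adjusted p = 0.00146), as were Cd177, a neutrophil surface protein (-1.38 ± 0.22, adjusted p = 0.000133), and Il1r2, a decoy receptor of interleukin 1 (-1.65 ± 0.26, adjusted p = 0.00013). Each of these 3 lost its call in 1 alternative.

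Among the called members, the contrary one was Ncf1, a subunit of the phagocyte oxidase. It was higher with Mitsui-7 (0.52 ± 0.14, adjusted p = 0.0272), a call that was lost in 12 of 29 alternatives. The mean level of the list ran from -3.89 to -3.23 with Mitsui-7, from -3.32 to -2.78 with NM-403 and from -3.93 to -3.23 in vehicle rats, so the Mitsui-7 range lay close to the vehicle range. Elane and Ltf, which code for granule proteins of neutrophils, were too dim to be tested. The share of neutrophils was not measured, and its part in these values was not tested.

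Of 16 CXC chemokines and receptors, 4 were lower with Mitsui-7 (Cxcl1, Cxcl6, Cxcl17 and Cxcr2) and 1 was higher, with a median of -0.11 that was 0.06 on slide 2. Cxcl2 and Cxcl3, other neutrophil attractants, had differences of -0.41 and -0.81 that did not pass. Cxcl6, a ligand of Cxcr2 that attracts neutrophils, was at -6.54 to -5.48 with Mitsui-7 and at -4.73 to -2.71 with NM-403 (-2.33 ± 0.50, adjusted p = 0.00423). The difference was -1.28 ± 0.28 for Cxcr2 and -0.94 ± 0.27 for Cxcl1, whose call was lost in 14 of 29 alternatives. Cxcl13, which attracts B cells, was the contrary one among the called members (0.99 ± 0.22, adjusted p = 0.00518).

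Acute phase proteins divided. Of 14 tested, 4 were lower with Mitsui-7 and 2 higher. Orm1, alpha-1 acid glycoprotein, was at -8.00 to -5.95 (median -6.99) with Mitsui-7, at -4.05 to -2.45 (median -3.39) with NM-403 and at -6.77 to -5.25 (median -5.95) in vehicle rats. The difference was -3.46 ± 0.45 (adjusted p = 9.93e-06), an 11.0-fold lower signal, and it was -1.93 to -4.15 within slides. Orm1 was well above background on 4 of 6 Mitsui-7 arrays, so its size rests partly on signals near the limit of detection. Its smallest difference in any alternative was -1.40. Hpx, hemopexin, had a difference of -1.59 ± 0.23 and Lcn2, lipocalin 2, of -1.24 ± 0.21. A2m, alpha-2-macroglobulin, and Serpina3n were higher with Mitsui-7, by 2.02 ± 0.22 and 1.08 ± 0.22. For Serpina3n the arrays overlapped, the 2 detected probes gave 1.08 and 0.21, and the difference on slide 5 was 0.10. A2m was at -3.65 to -2.39 with Mitsui-7, -5.91 to -4.52 with NM-403 and -6.84 to -5.82 in vehicle rats, so NM-403 rats lay between the others and overlapped the vehicle rats.

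Lpo, lactoperoxidase of airway glands, was at -4.36 to -3.25 with Mitsui-7, at -2.50 to -0.53 with NM-403 and at -3.10 to -2.41 in vehicle rats, with a difference of -2.35 ± 0.29 (adjusted p = 4.02e-06). Mitsui-7 rats lay below all vehicle rats, and the lowest NM-403 rat lay inside the vehicle range. Defb5, a beta defensin, had a difference of -3.24 ± 0.76 (adjusted p = 0.0082). RT1-O1, a class I gene of the rat MHC, had a difference of -2.58 ± 0.72 (adjusted p = 0.0298) on overlapping arrays, and its call was lost in 11 of 29 alternatives. Among 23 complement genes 4 were higher with Mitsui-7 and 2 lower, with a median of 0.15. The higher ones were C3ar1, a receptor of a complement fragment (1.07 ± 0.13), C6, Itgb2 and Serping1, and the lower ones were C3 (-0.66 ± 0.18, lost in 10 of 29 alternatives) and Cfb (-0.44 ± 0.09).

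Some hormone, receptor and neuropeptide genes were higher with Mitsui-7. Of 14 neural and endocrine genes 3 were higher and none lower. Sctr, the secretin receptor, was well above background on all Mitsui-7 arrays and on no NM-403 or vehicle array (at least 13.1-fold, adjusted p = 6.54e-09). Slc1a6, a glutamate transporter, was at least 5.95-fold higher. Calcb, a form of calcitonin gene-related peptide, was at -1.83 to -1.19 with Mitsui-7 and -4.42 to -3.65 with NM-403 (2.56 ± 0.20, adjusted p = 2.84e-09), and vehicle rats overlapped the NM-403 rats at -5.15 to -3.96. Outside this list, Trh, thyrotropin-releasing hormone, was at least 4.54-fold higher (adjusted p = 1.91e-06).

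Of 8 metallothioneins and zinc transporters tested 3 were higher and 1 lower. Mt3, a metallothionein that binds zinc and copper, was at -2.23 to 0.20 with Mitsui-7, at -4.79 to -3.77 with NM-403 and at -7.16 to -6.33 in vehicle rats (3.28 ± 0.35, adjusted p = 4.91e-07). The other metallothioneins tested, Mt1 and Mt2A, had differences of -0.25 each and did not pass. The zinc transporters Slc39a14 (1.00 ± 0.30) and Slc30a1 (0.39 ± 0.11) were higher and Slc39a4 (-0.28 ± 0.08) lower, and these calls were lost in 19 of 28, 10 of 28 and 20 of 29 alternatives. Slc7a11, the cystine importer induced by NRF2, was higher by 2.21 ± 0.29 (adjusted p = 1.42e-05), whereas only 2 others of 23 NRF2 targets passed, Osgin1 (-0.62 ± 0.18, lost in 16 of 28 alternatives) and Sod2 (-0.61 ± 0.15). Of 25 p53 targets 2 were higher (8.0%, beside 4.54% of all genes) and 1 lower (4.0%, beside 1.75%). The list median of 0.01 turned negative in some alternatives, to -0.08 with median scaling. Cdkn1a, the cell cycle inhibitor p21, was higher by 0.59 ± 0.10 (adjusted p = 0.0002). Mdm2, the ligase that degrades p53, had a difference of 0.20 ± 0.07 that did not pass (adjusted p = 0.0608).

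Of 23 endothelial markers 7 were lower with Mitsui-7 and none higher (median -0.24). Eng, endoglin, was at -1.52 to -0.43 with Mitsui-7 and -0.52 to 0.09 with NM-403, and Car4, a carbonic anhydrase of lung capillaries, had a difference of -0.52 ± 0.11 (adjusted p = 0.00468). On slide 5 the median over the endothelial list was 0.07, of the opposite sign. Of 15 cardiac muscle markers 4 were lower, among them Myh6, the atrial myosin heavy chain (-1.03 ± 0.25, adjusted p = 0.0115), and the mean level of the list ran from -2.93 to -2.52 with Mitsui-7, from -3.07 to -1.38 with NM-403 and from -2.28 to -1.97 in vehicle rats. Of 9 erythroid markers 1 was lower, Hbb, a beta globin (-0.63 ± 0.18, adjusted p = 0.0376, lost in 18 of 29 alternatives), the median was -0.56, and none of the 9 differences was above 0. Of 18 fibroblast and smooth muscle markers 1 was higher (5.56%, beside 4.54% of all genes) and none lower (median 0.07). The part of heart muscle and blood in these values was not tested.

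The vehicle rats showed on which side of them each difference lay. Against vehicle, 5432 genes passed with Mitsui-7 (22.2%) and 1893 with NM-403 (7.74%). For the 1110 genes higher with Mitsui-7, the vehicle mean was below both nanotube means for 60.1% (667 genes), between them for 38.3% (425) and above both for 1.62% (18). For the 428 genes lower with Mitsui-7 the vehicle mean was below both for 15% (64), between for 43.9% (188) and above both for 41.1% (176). Among genes not called with a higher Mitsui-7 mean, the shares were 47.0%, 25.3% and 27.7%. Among those not called with a lower one they were 30.7%, 20.6% and 48.7%. The vehicle arrays enter both nanotube differences, so these shares describe position and not independent responses.

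In p53-heterozygous rats the same pair of nanotubes gave 507 calls (2.07%), of which 393 were higher with Mitsui-7 (1.61%) and 114 lower (0.466%). The wild-type calls kept their direction there for 1036 of 1110 higher genes (93.3%) and 411 of 428 lower genes (96.0%), against 64.3% and 68.5% of the genes not called. Of them, 308 and 57 also passed in the heterozygous rats, and none passed in the opposite direction. The median difference of the higher genes was 0.69 in wild-type and 0.37 in heterozygous rats. These genes were chosen for passing in wild type, which enlarges their wild-type median, so the 2 medians do not compare the genotypes. No gene passed a test of the difference between genotypes in limma (0 calls, smallest adjusted p 0.188, and 1198 genes at an unadjusted p under 0.05, which is 4.9%). With the authors' matrix 1 gene passed and with array weights 3.

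All 130 named genes that passed in wild type had the same sign in the heterozygous rats, and 60 passed there. Mt3 differed by 4.08 (adjusted p = 4.06e-08) and Orm1 by -3.82 (adjusted p = 8.31e-06). The interferon list had a median of -0.01 in heterozygous rats against 0.45 in wild type. The difference between the list medians was not tested, and the interaction of Mx1 was 0.60 ± 0.27 (adjusted p = 0.982).

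**Figure D4:**
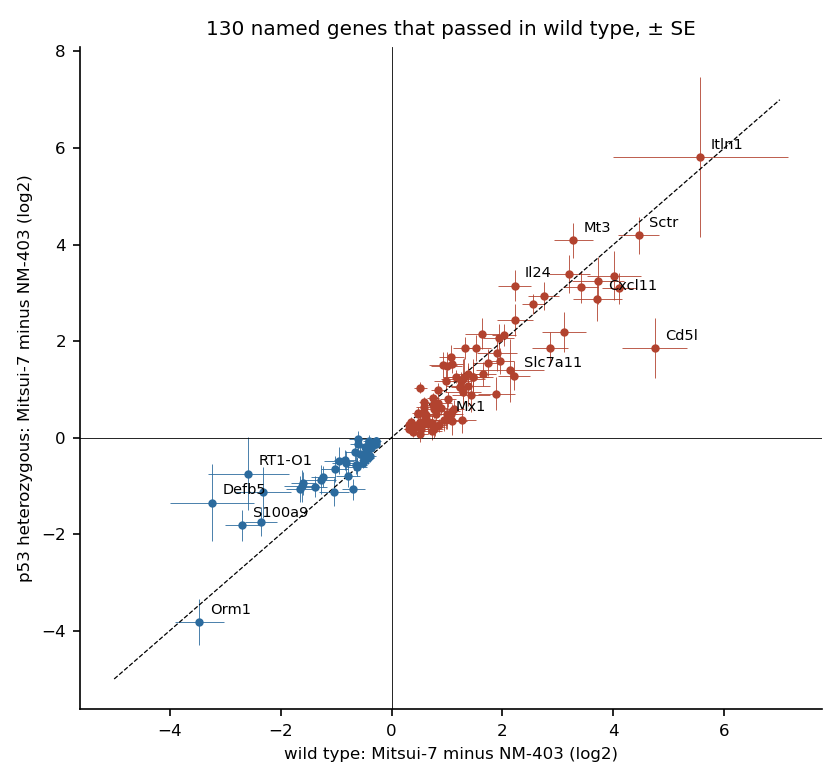
Each point is 1 of 130 named genes that passed in wild type, with its log2 difference, Mitsui-7 minus NM-403, in wild-type rats on the horizontal axis and in p53-heterozygous rats on the vertical axis, ± SE, and the dashed line marks equal differences. All points lie in the quadrants of equal sign. Genes not well above background in a group are drawn at their fitted difference, which is no bound.

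Of the 130 named genes that passed, 122 had the same sign on all 4 slides with both groups and 8 on 3 of them, and these genes were called from the same slides. Genes called without a slide kept their direction on it for 85.4% to 91.4%, against 58.8% to 60.2% of all genes. The number of calls without a slide was lowest, 742, without slide 5, which held Mitsui-7 replicate 5 and NM-403 replicate 6. Of 138 named genes, 30 had more than 1 detected probe, and the probes disagreed in sign for 1 of them, Hadha. Gene families such as the Ccl2 and Ccl12 chemokines, the mast cell proteases and the RT1 class I genes have close relatives, so their probes may bind more than 1 transcript.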

How the data were processed

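RNA of the accessory lobe was hybridised to 1-colour Agilent rat arrays. Each deposited scanner file gives an intensity per spot, already background-subtracted by the scanner software (Agilent Feature Extraction 12.0.1.1, as the submitters' processing notes name it). The matrix deposited by the authors holds log2 values for 11555 probes and served as an alternative, with 9803 genes.

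From each array, control spots were dropped and spots marked as outliers set to missing, log2 intensities were set relative to the 75th percentile of 58717 spots, and the probe with the highest mean stood for a gene. Genes were kept if well above background on at least 5 arrays with at least 3 values per group, which left 24473 genes (15327 with a symbol). Muc5ac, which was to be named in any case, was not among them. All 35 arrays were fitted in limma 3.58.1 (R 4.3.3) with slide, taken from the file headers, as a fixed block, and Benjamini-Hochberg adjustment at 0.05. The method was also run on simulated arrays with independent errors between genes. The outcome is not given here, and no result above rests on it. Genes were named by rule: the 10 largest called differences each way, up to 4 called members of each list plus contrary ones, and 20 preset genes. The other genes with values here (Cxcl2, Cxcl3, Cxcl9, Mrc1, Msr1, Mt1, Mt2A, Prg2) were chosen after their values were seen. The groups compared and the gene lists were chosen with earlier results of these data known. The number of arrays limits the precision.

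The values of 1 named gene are not reported here. P-values measure the spread between these rats.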

Additional observations from a re-analysis of the deposited data

Results flagged for a closer look

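Among the 274 groups of 6 arrays examined for 137 named genes, 10 held a value far from the rest by Dixon's test. Its critical value is by definition passed by about 1 group in 20 of normally distributed values. With Mitsui-7, Cxcl13 in replicate 4 was at -1.48 (next -2.45), Lcn2 in replicate 2 at 3.78 (next 3.38) and Krt14 in replicate 2 at -3.31 (next -4.63). In Mitsui-7 replicate 5, the array with the most spots above background, Lrrc10 was at -8.90 (next -8.08), Cd86 at -4.50 (next -4.99) and Tlr1 at -4.39 (next -4.96). Mmp7 in Mitsui-7 replicate 1 was at -3.47 (next -1.76). With NM-403, replicate 3 was apart for Col1a1 at 2.09 (next 2.85) and for Dnai2 at -2.64 (next -2.24). C6 in NM-403 replicate 6 was at -2.47 (next -3.41).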

How the results depend on the processing

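Calls (higher, lower) were 813 (678, 135) without the slide block, 194 (165, 29) with only the 12 arrays, 808 (558, 250) with normexp, 782 (677, 105) at 1.5-fold or more, 2445 (1616, 829) with array weights and 2615 (858, 1757) with median scaling. Lower calls were 771 with quantile normalization and 269 with no filter on dim probes. The authors' matrix, with 9803 genes, gave 406 higher and 728 lower. Without slide 1 there were 1024 (219 lower), without slide 3 1012 (196 lower), without slide 4 940 (706, 234) and without slide 5 742 (577, 165). Leaving out 1 array gave 1059 to 1746 calls, 764 to 1149 higher and 263 to 597 lower. The causes were not tested. With the replicate number as a block beside slide, 1472 genes passed (1083 higher, 389 lower). Under it 8 of 138 named genes lost the call, and the numbers are not known to pair the rats: same-numbered arrays had residual correlations of -0.366 to 0.174. In p53-heterozygous rats the calls were 334 without the slide block, 297 in the authors' matrix and 1693 with array weights, and the interaction gave 1 call in the authors' matrix and 3 with array weights. Of 693 wild-type calls also in the authors' matrix, 690 passed there. Of the 138 named genes, 3 reversed, none of which passed: Ccl2 without slide 2 (-0.00089), Ccl7 without slide 2 (-0.23) and in leaving out 1 array (-0.01799 to 0.3899), and Sftpc with only the 12 arrays (-0.03381), with median scaling (-0.04227), without slide 1 (-0.014) and in leaving out 1 array (-0.01394 to 0.128). The number of named genes past the threshold in every setting was 35 of 130.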

Other observations

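Some genes with large differences varied widely between rats of a group. Itln1 with Mitsui-7 was between 3.15 and 3.85 in 3 rats and between -3.95 and -1.76 in the other 3. RT1-O1 with Mitsui-7 was between -4.62 and -4.47 in 3 rats and between -0.79 and -0.59 in the other 3, while the 6 NM-403 rats lay from -0.69 to 0.64 and the vehicle rats from -0.84 to 0.12. Defb5 with Mitsui-7 ran from -2.31 to 1.41.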
